A study of Mus musculus with 6 samples.

Results

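The MS4A genes described here are Ms4a4a, Ms4a4b, Ms4a4c, Ms4a4d, Ms4a6b, Ms4a6c, Ms4a6d and Ms4a7, the members of the family known from myeloid cells together with the close paralogs that lie among them. They were chosen by symbol, as every probe whose transcript accession maps to one of these 8 genes, which gave 9 of the 56605 probes on the array. Each gene had 1 probe except Ms4a7, which had 2. Microglia, the resident macrophages of the brain, were sorted as live CD45lo Cx3cr1+ CD11b+ cells from 3-month-old mice on a C57BL/6 background. The genotypes were Bhlhe41 dTomato-Cre/+ (B41HET, 3 samples, the controls) and Bhlhe41 dTomato-Cre/dTomato-Cre (B41KO, 3 samples). The allele places dTomato and Cre before the start codon of Bhlhe41, a transcriptional repressor also called Dec2, and ends translation of Bhlhe41 there, so that it is a null allele by design. The B41HET controls carry 1 such allele, thus lack 1 functional copy and also express dTomato and Cre, and no wild-type sample was measured on these arrays. The Methods describe every sample as a pool of several mice, whereas the labels speak of 3 mice per genotype. The p-values measure the spread between these samples only. RNA was hybridised in 1 colour, so each probe gave 1 fluorescence intensity per sample.

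MS4A proteins span the plasma membrane several times and sit beside surface receptors, whose trafficking and signalling they modulate. The best known relative is Ms4a1, which encodes the B cell antigen CD20. In myeloid cells Ms4a4a works beside the fungal receptor Dectin-1, and in humans the MS4A gene region is linked to the soluble form of the microglial receptor TREM2 and to the risk of Alzheimer disease. Ms4a7 is widely used to tell macrophages at the borders of the brain from the microglia of its parenchyma, and Ms4a4b and Ms4a6b are best known from T cells. The comparison of genotypes asked whether the RNA of these genes differed with the second null allele.

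In the order of the mouse genome (RefSeq, GRCm38.p6) the members were 8 family genes in a row on chromosome 19, in the order Ms4a7, Ms4a4a, Ms4a4c, Ms4a4b, Ms4a6c, Ms4a6b, Ms4a4d and Ms4a6d, with 21 Ms4a genes in the whole cluster. Promoter sequence of RefSeq was at hand for 7 of the 8 members, in 8 windows since Ms4a7 had 2 start sites, and Ms4a6d had none. The 250 bases before the start were aligned for every pair. A pair of genes in each subfamily stood apart from the other pairs compared. Ms4a6b and Ms4a6c were the only Ms4a6 pair, since Ms4a6d had no window. Ms4a6b and Ms4a6c were 83.5% identical over 182 aligned positions, with 48 bases in a row without a difference. Ms4a4b and Ms4a4c were 89.1% identical over 128 positions, with a longest shared run of 20 bases. They are shown because the former pair gave similar fold changes in these data, while of the latter pair Ms4a4c was detected on every array and Ms4a4b on none. Sequences run from 5′ to 3′ and end at the base before the annotated start, and capitals mark runs of 12 or more bases shared within the pair.

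Ms4a6b (chr19:11518309-11518558, plus strand): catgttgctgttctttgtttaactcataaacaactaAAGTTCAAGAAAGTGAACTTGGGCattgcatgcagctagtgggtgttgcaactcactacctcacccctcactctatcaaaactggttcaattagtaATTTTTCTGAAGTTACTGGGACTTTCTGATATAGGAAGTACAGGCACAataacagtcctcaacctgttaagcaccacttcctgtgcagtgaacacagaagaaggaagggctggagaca
Ms4a6c (chr19:11469118-11469367, plus strand): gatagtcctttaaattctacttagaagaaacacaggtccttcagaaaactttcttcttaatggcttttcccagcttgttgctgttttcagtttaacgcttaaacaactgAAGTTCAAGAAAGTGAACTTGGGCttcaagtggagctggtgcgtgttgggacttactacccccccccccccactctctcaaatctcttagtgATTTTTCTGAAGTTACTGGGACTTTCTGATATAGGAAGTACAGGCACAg

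Ms4a4b (chr19:11443308-11443557, plus strand): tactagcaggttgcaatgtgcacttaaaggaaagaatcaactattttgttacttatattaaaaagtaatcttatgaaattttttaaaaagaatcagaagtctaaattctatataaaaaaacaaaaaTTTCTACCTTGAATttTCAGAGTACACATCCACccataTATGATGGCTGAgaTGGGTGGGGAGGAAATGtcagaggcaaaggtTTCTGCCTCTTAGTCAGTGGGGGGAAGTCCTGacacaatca
Ms4a4c (chr19:11407411-11407660, plus strand): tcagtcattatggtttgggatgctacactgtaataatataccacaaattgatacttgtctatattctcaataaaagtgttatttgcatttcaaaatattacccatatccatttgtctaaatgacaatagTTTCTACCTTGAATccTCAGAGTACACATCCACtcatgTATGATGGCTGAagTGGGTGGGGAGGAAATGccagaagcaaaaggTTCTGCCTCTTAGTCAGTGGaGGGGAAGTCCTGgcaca

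In the Ms4a6 pair the capitals cover 72 bases and lie at different distances from the annotated start, which in Ms4a6c follows 1 base after the longer run and in Ms4a6b lies further downstream. In the Ms4a4 pair they cover 92 bases, all of them in the part nearest the start. The E-box CACGTG, the sequence that Bhlhe41 is known to bind, was searched on both strands in windows that also hold 50 bases after the start. It was in 0 of the 8 member windows and in 7.15% of all 32851 windows. The shorter pattern CANNTG, which includes CACGTG, was in 5 of 8 member windows and in 72.3% of all. GAGGAAGT, a form of the site of the myeloid factor PU.1, was in 0 of the 8 member windows and in 3.2% of all. Such matches describe the letters of these windows and are no evidence of binding.

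Of these 8 genes, Ms4a7 and Ms4a4a had the largest decreases in the fit as reported. Ms4a6b was also called lower, and Ms4a4c showed no detectable difference. A probe counts as well above background in a sample where the scanner software marked it so. Values are log2 intensities after quantile normalization and fold changes are log2 of B41KO over B41HET. A probe was called if its limma p-value, after Benjamini-Hochberg adjustment over the 56601 probes tested, was 0.05 or less and its log2 fold change was at least 0.5 in size. Of the 9 member probes, 4 were called lower in B41KO microglia and 0 higher. Among all probes, 3.34% were called lower and 1.72% higher. By the brightest probe of each gene, 3 of the 8 members were called lower, beside 4.01% of 23462 genes, and 0 were called higher, beside 1.44%. The median log2 fold change was -0.48 over the member probes and 0.02 over all probes tested. The count of member probes called lower fell from 4 to between 0 and 2 when 1 sample was left out. It was 1 under normexp background correction of the median signal with an offset of 50. Ms4a6b (-0.47) and both Ms4a7 probes (-0.29 and -0.42) lost their calls there on the fold threshold alone. Their limma adjusted p values were 0.00477, 0.0107 and 0.00716. Ms4a4a was at -0.51, Ms4a6c at -0.38 and Ms4a6d at -0.33 in that setting, so the order of the decreases differed. The slide had its B41HET arrays in row 1 together with B41KO replicate 1, and B41KO replicates 2 and 3 in row 2. Within row 1 the values were -0.89 for Ms4a4a, -1.20 and -2.12 for Ms4a7 and -0.60 for Ms4a6b, with 0 calls among members. The gate for CD45lo Cx3cr1+ CD11b+ cells is meant to leave out other myeloid cells, and in a bulk sample fewer cells of a type and less RNA per cell cannot be told apart.

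**Figure D1:**
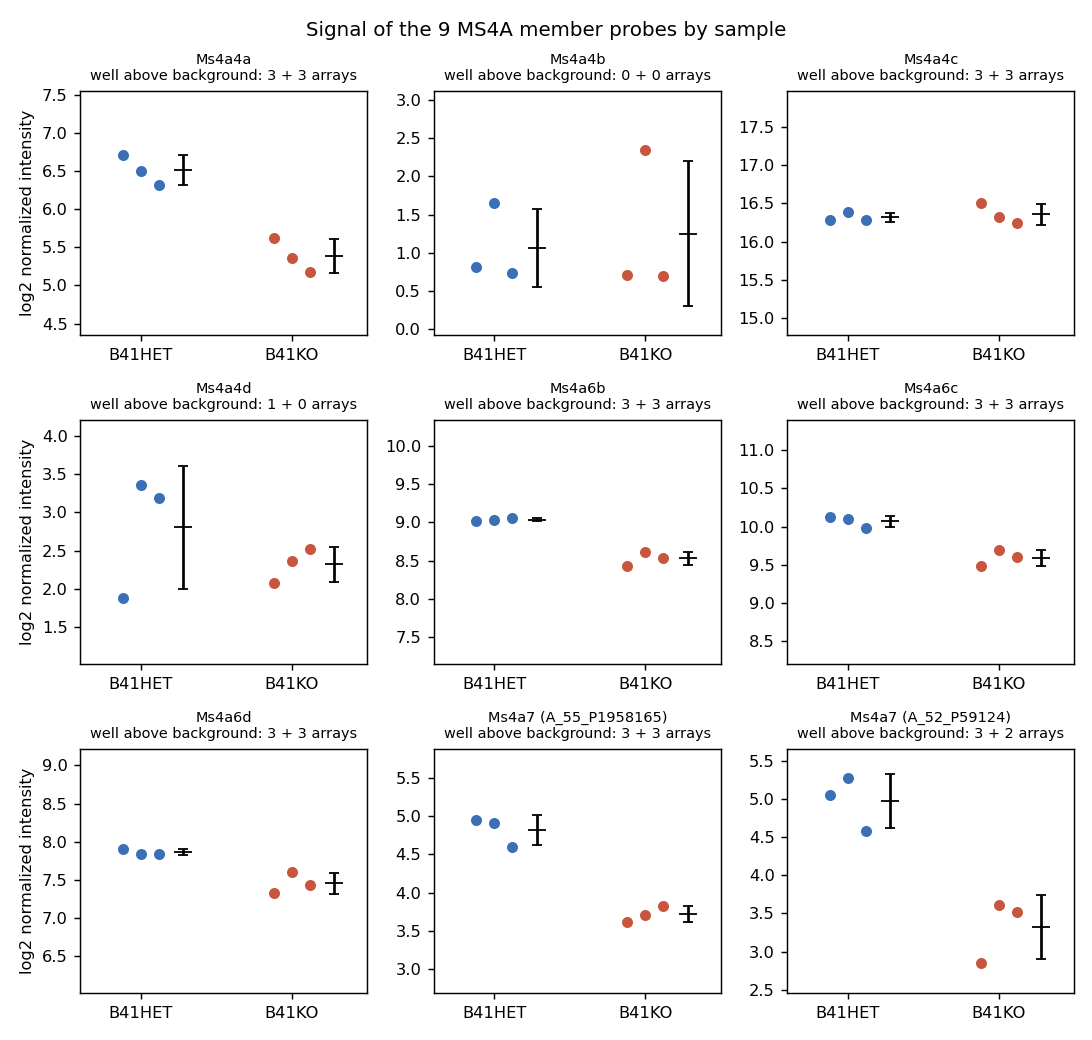
Signal of each member probe by sample, as log2 normalized intensity, with B41HET samples in blue and B41KO samples in red (n = 3 per genotype, replicates 1 to 3 from left to right); black marks give mean ± SD, every panel spans the same number of log2 units, and the panel title counts the arrays on which the probe was well above background. The B41KO points of Ms4a4a, Ms4a6b, Ms4a6c, Ms4a6d and both Ms4a7 probes lie below all B41HET points, and those of Ms4a4c, Ms4a4b and Ms4a4d overlap with them.

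Ms4a4a encodes the partner of Dectin-1. Its probe A_55_P2040485 read 6.72, 6.50 and 6.32 in B41HET replicates 1 to 3 and 5.62, 5.36 and 5.18 in B41KO replicates 1 to 3. The genotypes did not overlap, and the lowest B41HET sample stood 0.70 above the highest B41KO sample. The log2 fold change was -1.13 ± 0.16 (SE, n = 3 per genotype; limma adjusted p = 0.0187), or 0.458 times the B41HET level with a 95% confidence interval from 0.351 to 0.598. It was the largest decrease among member probes well above background on all 6 arrays, and 657th from the lowest among all probes. The decrease lost its call when B41HET replicate 1 (adjusted p = 0.0624), B41HET replicate 2 (0.0784), B41KO replicate 2 (0.0698) or B41KO replicate 3 (0.0556) was left out, with values from -1.24 to -1.02 over all leave-one-out fits. Under normexp background correction its value was -0.51, still called (adjusted p = 0.00488).

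Ms4a7, the border macrophage marker, was read by both of its probes. On the brighter, A_55_P1958165, B41HET samples read 4.95, 4.91 and 4.59 and B41KO samples read 3.62, 3.71 and 3.82. All samples were well above background, and the groups stood apart by 0.77. The log2 fold change was -1.10 ± 0.12 (SE, n = 3 per genotype; limma adjusted p = 0.0108), or 0.467 times the B41HET level with an interval from 0.378 to 0.576. The second probe, A_52_P59124, read 5.05, 5.27 and 4.58 in B41HET and 2.85, 3.61 and 3.51 in B41KO samples. It was well above background in 3 B41HET samples and in 2 of 3 B41KO samples, without overlap between genotypes. Its log2 fold change of -1.64 ± 0.27 (SE; limma adjusted p = 0.0289) was larger than that of the first probe, and the 95% intervals, -2.31 to -0.97 and -1.40 to -0.80, overlapped. Both probes gave the same direction and the same call. Normexp on the median signal with an offset of 50 gave -0.29 and -0.42 (limma adjusted p = 0.0107 and 0.00716). Both calls were lost there on the fold threshold alone. Intensities before normalization were 6.72 to 43.2 on these probes, where an offset of that size by itself makes fold changes smaller. The call on the brighter probe was lost without B41HET replicate 2 (adjusted p = 0.0564), and that on the second probe was lost when any single sample was left out (adjusted p from 0.0511 to 0.0984).

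Of the 3 Ms4a6 genes, 1 was called lower, and the others came close to the thresholds. Ms4a6b (A_55_P2622800), best known from T cells, read 9.02, 9.04 and 9.06 in B41HET samples and 8.44, 8.61 and 8.54 in B41KO samples. The B41HET samples lay almost on one level, and every B41KO sample was lower by at least 0.41. The log2 fold change of -0.51 ± 0.08 (SE, n = 3 per genotype; limma adjusted p = 0.0222) passed the fold threshold narrowly. Without any 1 of the 6 samples Ms4a6b was no longer called (adjusted p from 0.0506 to 0.0897), with values from -0.55 to -0.46.

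Ms4a6c (A_51_P193146), a monocyte and macrophage gene, read 10.12, 10.10 and 9.99 in B41HET and 9.48, 9.69 and 9.60 in B41KO samples. The groups did not overlap. Its log2 fold change of -0.48 ± 0.09 (SE; limma adjusted p = 0.0364) passed the p threshold and stopped just short of the fold threshold, so it was not called. Ms4a6d (A_66_P116441), also a macrophage gene, read 7.91, 7.85 and 7.84 in B41HET and 7.33, 7.60 and 7.44 in B41KO samples, again without overlap. Its log2 fold change of -0.41 ± 0.09 (SE; limma adjusted p = 0.0591) met neither threshold. The 95% intervals of Ms4a6b (-0.70 to -0.32), Ms4a6c (-0.70 to -0.26) and Ms4a6d (-0.63 to -0.18) overlapped almost wholly, and whether the 3 genes differed in size of response was not tested. The sequences of the probes were not at hand, so whether a probe of Ms4a6b also binds Ms4a6c RNA was not tested.

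Ms4a4c, a myeloid gene of the Ms4a4 subfamily, behaved differently. Its probe A_55_P2135980 read 16.28, 16.39 and 16.28 in B41HET and 16.51, 16.32 and 16.24 in B41KO samples. The B41KO samples lay on both sides of the B41HET samples. The log2 fold change was 0.04 ± 0.10 (SE, n = 3 per genotype; limma adjusted p = 0.855), with a 95% interval from -0.20 to 0.28. A decrease as large as that of Ms4a4a, Ms4a6b or Ms4a7 lay outside this interval, whereas those interval bounds still allow a small change in either direction. Intensities before normalization were 74775 to 92294 on this probe, and the scanner marked 0 spots as saturated on any array. Its spot ranked from 23rd to 34th brightest of the 59305 spots kept per array. Whether signal still follows RNA in proportion at that level, or whether the probe binds other RNA, was not tested.

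The other two Ms4a4 genes were at the edge of detection. Ms4a4b (A_51_P136294), a T cell gene, read 0.81, 1.65 and 0.73 in B41HET and 0.71, 2.34 and 0.70 in B41KO samples and was well above background on 0 of 6 arrays. Its samples overlapped, and since neither genotype was well above background its fold change is not read here. Ms4a4d (A_52_P211956) read 1.87, 3.35 and 3.19 in B41HET and 2.07, 2.37 and 2.52 in B41KO samples, and was well above background in 1 B41HET sample only. The B41KO samples lay within the B41HET range, and the genotypes did not differ beyond the spread between samples (limma adjusted p = 0.559). These 2 genes were not measured well enough to tell a difference of the size seen in Ms4a6b.

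Counted without the fit, 6 of the 9 member probes, of 5 genes, had every B41KO sample below every B41HET sample. The same held for 15.2% of all probes and for 18.7% of the 38257 probes well above background on all 6 arrays. In an exact two-sided permutation test of the samples each of these 6 probes gave p = 0.1, as any probe without overlap must. That is the smallest p that 3 against 3 samples allow, so the test adds nothing to the count. Of the 6 member probes well above background on all 6 arrays, 3 were called lower, beside 4.19% of all such probes, and Ms4a4c alone overlapped.

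**Figure D2:**
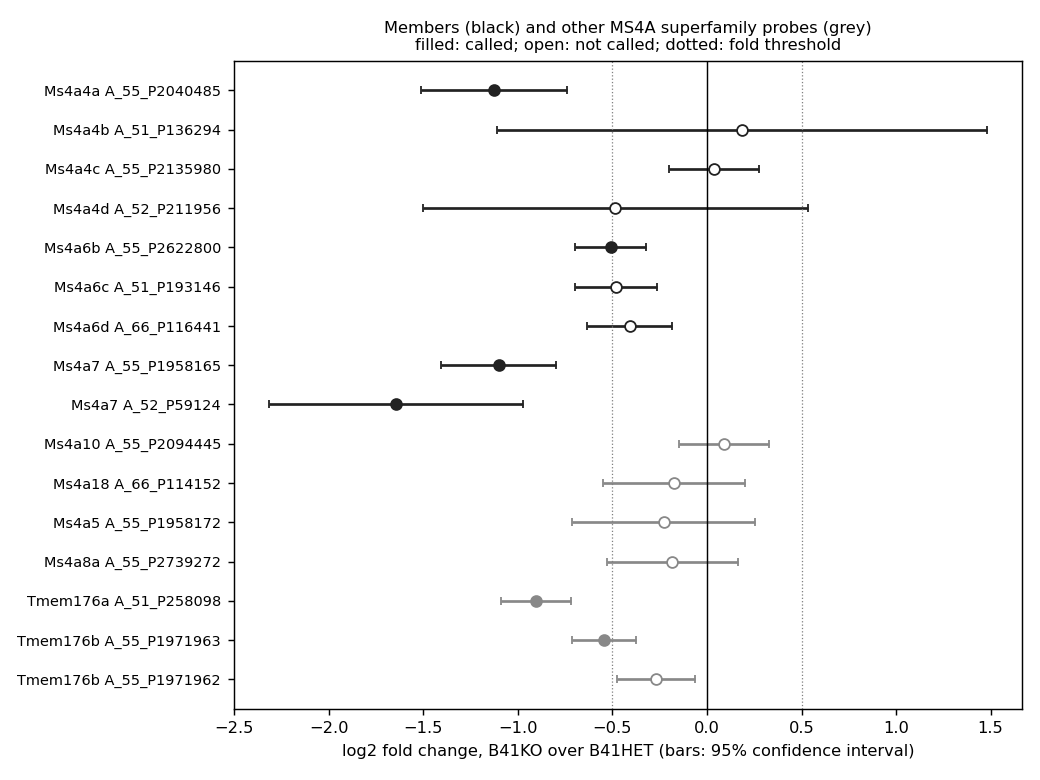
Log2 fold change, B41KO over B41HET, with 95% confidence interval from limma (n = 3 per genotype) for the 9 member probes in black and for the 7 other MS4A superfamily probes well above background on all 6 arrays in grey; filled points were called, and dotted lines mark a log2 fold change of 0.5 in either direction. Ms4a4a at -1.13 and the Ms4a7 probes at -1.10 and -1.64 lie furthest to the left, the 3 Ms4a6 genes lie near the dotted line, and Ms4a4c lies at 0.04.

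Within the gene cluster the called members did not form 1 unbroken stretch. Ms4a7 and Ms4a4a are neighbours at one end of the 8 genes. Ms4a4c and Ms4a4b, without a detected change, come next, followed by Ms4a6c, Ms4a6b, Ms4a4d and Ms4a6d. Gm8369, a gene without an Ms4a symbol, lies between Ms4a6c and Ms4a6b, and its relation to the family was not tested. It had a log2 fold change of -0.73 ± 0.25 (SE, limma adjusted p = 0.159). This gene was well above background in 3 B41HET and 1 B41KO sample and was not called. On the near side of the cluster, Ms4a5 (-0.23, adjusted p = 0.561), Ms4a8a on its brighter probe (-0.18, adjusted p = 0.512), Ms4a18 (-0.17, adjusted p = 0.573) and Ms4a10 (0.09, adjusted p = 0.645) were well above background on all arrays and none was called.

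**Figure D3:**
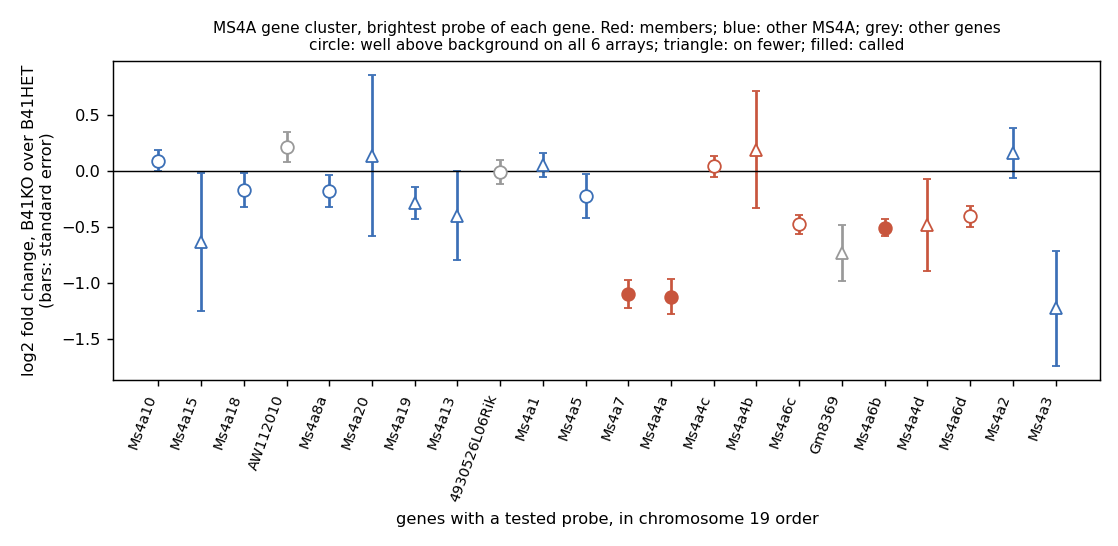
Log2 fold change, B41KO over B41HET, with its standard error for the brightest probe of each tested gene (n = 3 per genotype). Genes follow the order of the MS4A cluster on chromosome 19. Red marks members, blue other MS4A genes and grey genes without an Ms4a symbol. Filled symbols were called, and triangles mark probes not well above background on all 6 arrays. Ms4a7, Ms4a4a and Ms4a6b are the called genes of the cluster on this scale, and Ms4a4c at 0.04 lies between them.

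Across the rest of the superfamily, 19 probes of 13 genes were tested, and calls were in 1 direction only. Tmem176a, which encodes an intracellular cation channel related to the MS4A proteins and lies outside the cluster, read 12.09, 12.09 and 12.12 in B41HET and 11.12, 11.17 and 11.29 in B41KO samples. It fell by 0.90 ± 0.08 on the log2 scale (SE; limma adjusted p = 0.00542). Tmem176b, its partner, fell by 0.55 ± 0.07 on its brighter probe (limma adjusted p = 0.0141), and its other probe gave -0.27 ± 0.08 (adjusted p = 0.125). The dimmer probe of Ms4a8a, a macrophage gene, was well above background in 3 B41HET and 0 B41KO samples (limma adjusted p = 0.00374), which made its signal at least 1.30-fold higher in B41HET microglia. The brighter Ms4a8a probe, given above, was not called, so the 2 probes disagree. Ms4a3, a gene of granulocyte and monocyte progenitors, was well above background in 1 B41HET sample only and was not called (limma adjusted p = 0.229). Ms4a1 (CD20), Ms4a2 (a chain of the mast cell IgE receptor), Ms4a19 and Ms4a20 were not well above background on any array. By brightest probe, 2 of the 13 genes were called lower and 0 higher, with a median log2 fold change of -0.23.

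Genes of the receptors beside which MS4A proteins are known to work were read next. Of 14 partners of TREM2 and Dectin-1 signalling, 1 was called higher and 1 lower, beside 1.44% and 4.01% of all genes, 12 were not called, and the median log2 fold change was -0.01. Trem2 itself had a value of 0.21 ± 0.10 (SE; limma adjusted p = 0.286), and Tyrobp, which encodes its signalling adaptor, 0.04 ± 0.08 (adjusted p = 0.800). Clec7a, which encodes Dectin-1, had a value of -0.19 ± 0.09 (adjusted p = 0.254). Apoe, a lipid carrier that TREM2 binds, fell by 0.68 ± 0.07 on the log2 scale (adjusted p = 0.0102). Cd63, a tetraspanin of late endosomes, rose by 0.72 ± 0.07 (adjusted p = 0.00749). Of the interferon response list, 1 of 13 genes was called, Ifitm3 at -0.98 ± 0.14 (limma adjusted p = 0.0189), and Ifit3 was at -0.46 ± 0.12 (adjusted p = 0.0945). The list median was -0.07.

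Some markers of other myeloid cells were also called lower. Of 12 border macrophage markers, 4 were called lower and 12 had negative fold changes, with a median of -0.61. Cbr2 had a log2 fold change of -1.44 and Cd163, the haemoglobin scavenger receptor, of -1.02 (limma adjusted p = 0.00681 and 0.00506). The platelet factor gene Pf4 (-0.72) and F13a1 (-1.92, well above background in 1 B41KO sample) were the other called genes. The defining markers Mrc1 and Lyve1 were well above background in 3 B41HET and 0 B41KO samples, at least 2.22-fold and 1.39-fold higher in B41HET, although neither was called (adjusted p = 0.0745 and 0.0974). The summed intensity of the list ran from 3107 to 3225 in B41HET and from 2298 to 2420 in B41KO samples. Most of it came from Stab1, a scavenger receptor gene at 11.07 in B41HET and 10.58 in B41KO samples on the log2 scale. Stab1 passed the p threshold (-0.49, limma adjusted p = 0.0280) and stopped just short of the fold threshold, so it was not called. Of 12 monocyte markers, 6 were called lower. Among those well above background on all arrays Chil3 (-2.26) and Cd177 (-2.10) had the largest changes, followed by Ly6c2 (-2.10). Plac8 (-2.68, well above background in 2 B41KO samples) and F10 (in 0 B41KO samples, at least 1.74-fold higher in B41HET) were called as well. Whether Chil3 and Cd177 tell monocytes from neutrophils here was not tested. The monocyte list had summed intensities of 3059 to 3194 against 1385 to 1435, while Ccr2 was at -0.30 and not called. Of 12 neutrophil markers, 9 were called lower, led by Ltf (-3.17) and Ngp (-3.13), secreted granule proteins, with sums of 24163 to 27070 against 4032 to 4409. What part these cells had in the values of Ms4a7, Ms4a4a and Ms4a6b was not tested.

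Of 12 microglia markers, 1 was called lower, Fcrls at -0.76 (limma adjusted p = 0.00581), and 0 higher, with a median of -0.05 and sums of 176542 to 194941 against 171352 to 183045. All 12 were well above background on all 6 arrays, which the label of purified microglia asks for, and so were all 12 neutrophil markers. Of the T and NK cell markers, among whose cells Ms4a4b and Ms4a6b are known, 1 of 12 was called lower (Il7r, -0.84) and the median was 0.05. The B cell list had 2 of 12 genes called lower (Cd79a, -0.99, and Bank1, -0.62) with a median of -0.11. The mast cell list had 2 of 10 genes called lower, Hdc at -2.48 and Gata2, which no array measured well above background, with a median of 0.03.

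**Figure D4:**
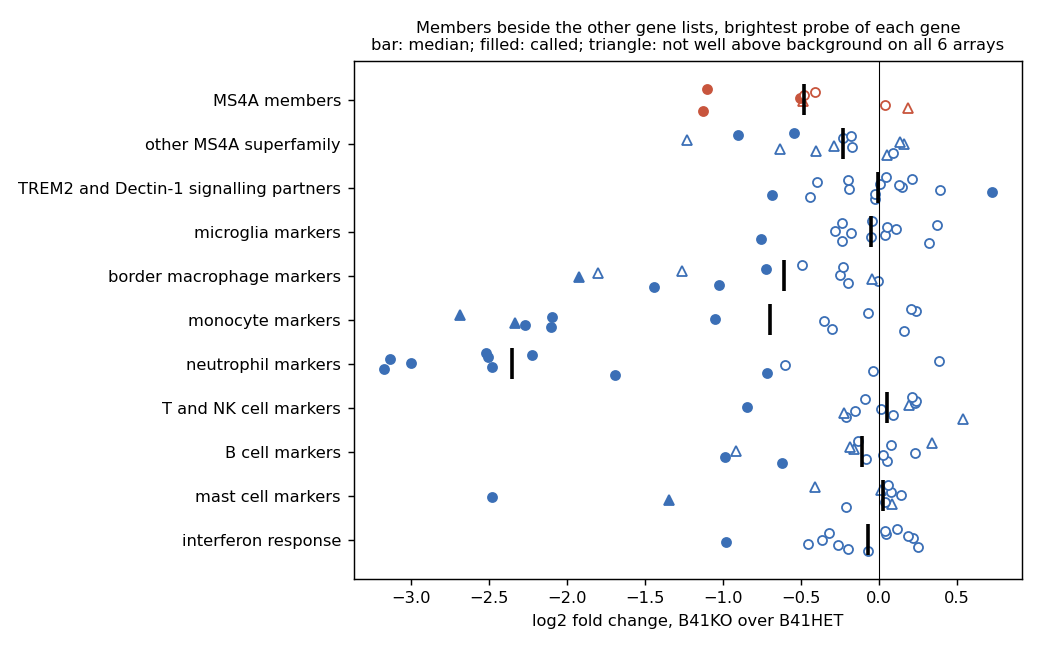
Log2 fold change, B41KO over B41HET, of each gene by its brightest probe (n = 3 per genotype), with 1 row per gene list and a black bar at the list median; filled symbols were called and triangles mark probes not well above background on all 6 arrays. The members, in red, have a median of -0.48. The other MS4A genes have a median of -0.23, the border macrophage markers of -0.61 and the monocyte markers of -0.70. The microglia markers lie at -0.05 and the neutrophil markers at -2.35.

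The targeted gene, Bhlhe41, was not called on either probe. The probes of Bhlhe41 had log2 fold changes of 0.38 ± 0.20 (SE; limma adjusted p = 0.330) and 0.33 ± 0.13 (adjusted p = 0.203), and on the second probe every B41KO sample lay above every B41HET sample, by 0.048 or more. Where these probes lie relative to the inserted cassette was not examined here, so they do not check the labels. Its paralog Bhlhe40 had a value of 0.09 ± 0.11 (adjusted p = 0.705). The 6 arrays lay on 1 slide, with 70.1% to 75.5% of probes well above background, and correlations between arrays from 0.985 to 0.993.

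Likeness of pattern was described by Pearson's r over the 6 samples, both genotypes together, among 17201 genes well above background. The genes most like Ms4a4c were Msgn1 (r = 0.987), Ppif (0.980) and Bola3 (0.976), and 0.326% of genes had an r above 0.9. The genes most like Ms4a4a were Tmem131l (r = 0.999), Brpf3 (0.999) and Rtn1 (0.998). For Ms4a4a 12.1% of genes had an r above 0.9, and 92 genes had an r above 0.99.

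**Figure D5:**
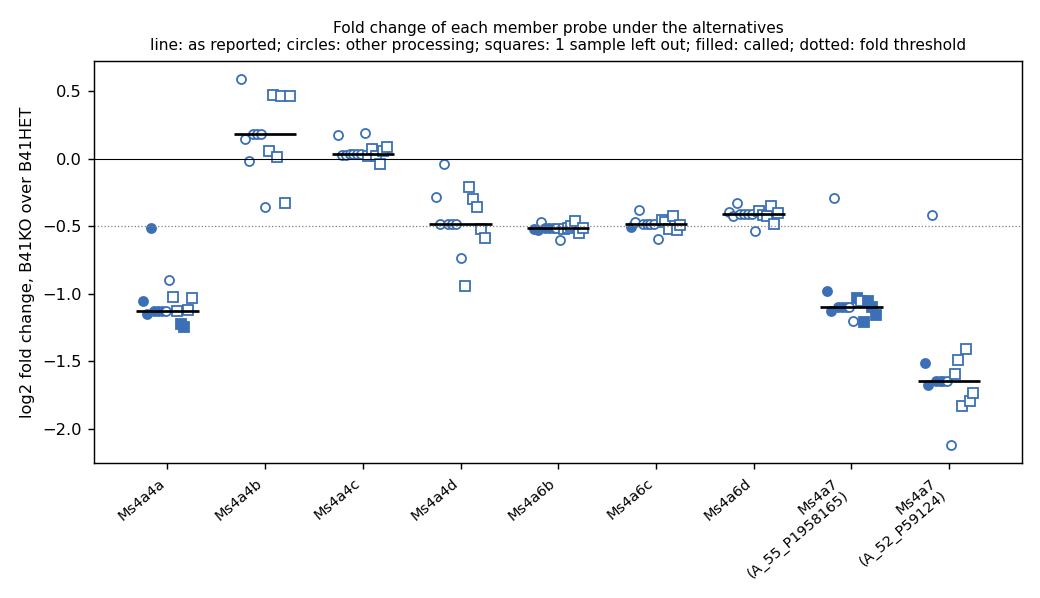
Log2 fold change, B41KO over B41HET, of each member probe as reported (black line), under other processing (circles) and with 1 sample left out (squares); filled symbols were called and the dotted line marks a log2 fold change of -0.5. Ms4a4a, the Ms4a6 genes and both Ms4a7 probes stay below 0 in every setting, with Ms4a7 moving up to -0.29 and -0.42 under normexp, while Ms4a4b and Ms4a4c lie on both sides of 0.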

How the data were processed

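Scanner output of 6 arrays, made with Agilent Feature Extraction 11.5.1.1, was used. The deposited intensities were background-subtracted within each array by the authors and not normalized between arrays. The authors also deposited a table of processed log2 values of unstated scale, which was used as an alternative. Control spots were left out, which kept 59305 of 62976 spots per array, and 95 to 136 spots per array with an outlier flag were dropped. The log2 intensity (pseudocount 0) was quantile normalized, averaged over the spots of a probe and fitted with limma 3.58.1 in R 4.3.3, genotype being the only term. The Methods name quantile normalization and limma, and no model terms or handling of outlier spots. Probes with values in at least 2 samples per genotype were tested. Well above background is the scanner's own mark. The number of arrays, 3 per genotype, limits the precision. Probes were named by matching transcript accessions to RefSeq (33767 probes, 59.7%). Gene lists were counted on the brightest probe of each gene. A bound of the form at least N-fold sets the mean of the brighter group against a floor for the dimmer one, the mean over its arrays of the higher of the lowest signal well above background and the signal of the probe itself. Promoters were aligned with Biopython 1.88, and figures drawn with matplotlib 3.10.9.

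All probes of the members were named, as were Bhlhe41, the superfamily probes called or well above background on all arrays, and up to 2 genes of each list with the largest change among probes well above background on all arrays (Slc2a5 at 0.37, Ncr1 at 0.23 and Cma1 at -0.21, the second in their lists, were not called). Mrc1, Lyve1, Stab1, Plac8, F10, Pf4, F13a1, Gata2, Ccr2, Ly6c2, Gm8369, Bhlhe40, Trem2, Tyrobp, Clec7a and the dim superfamily genes were named after their values were seen. The members and lists were chosen with earlier results of these data known. On simulated data with these probes' means and spreads, 69.0% of 200 changed probes of 56559 were called, 48.0% where the log2 change was 1 and 90.0% where it was 2, with 8 false calls of 146.

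The alternatives were a shift to the 75th percentile, the authors' processed values and normexp on the median signal with an offset of 50. Others were the use of outlier spots, the restriction to probes that the scanner marked on 3 or more arrays, and trend and robust variance. The replicate number and the slide row as blocks, each sample left out, and other fold thresholds completed them.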

Additional observations from a re-analysis of the deposited data

How the results depend on the processing

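No member was called higher under any alternative. The count of member probes called lower, 4 as reported, was 1 under normexp, 0 with the replicate block, 0 with a block for slide row and from 0 to 2 with 1 sample left out (1 without B41HET replicate 1, 0 without B41HET replicate 2, 2 without B41HET replicate 3, 2 without B41KO replicate 1, 1 without B41KO replicate 2 and 1 without B41KO replicate 3). Over all probes 975 were called higher and 1892 lower. These counts were 423 and 1077 under normexp, 2 and 40 with the replicate block, 184 and 260 with the row block, 244 to 503 and 552 to 1021 with 1 sample left out, and 249 and 550 at a log2 fold change of 1 or more. The shift to the 75th percentile moved the median of all probes to 0.13 and the share of lower among called probes from 66.0% to 54.2%. Under that shift Ms4a6c was called as well (-0.50, adjusted p = 0.0459), and Ms4a4a was at -1.05 and Ms4a4c at 0.18.

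The replicate numbers did not pair the samples, since the correlations of deviations within a number were 0.13, -0.01 and 0.17. Row 1 of the slide held all B41HET samples and B41KO replicate 1, and row 2 the other B41KO samples, so the fit with row as a block is also the comparison within row 1 and rests on a single B41KO sample. It gave -0.89 for Ms4a4a (adjusted p = 0.134), -1.20 and -2.12 for Ms4a7 (0.0779 and 0.0650), and -0.60, -0.59 and -0.53 for Ms4a6b, Ms4a6c and Ms4a6d. The directions of these 5 genes did not change under any alternative. Ms4a4b turned to -0.017 under normexp and to -0.35 with the row block, and with 1 sample left out it ran from -0.33 (without B41KO replicate 2) to 0.48. The Ms4a4b probe was well above background on no array, so no direction is read from these values. Ms4a4c turned to -0.039 without B41KO replicate 1, the lowest of its leave-one-out values, which reached 0.091. Ms4a4b and Ms4a4d had no value under the filter on dim probes. The cause of these changes was not tested. Signals near background limit what can be said of Ms4a4b, Ms4a4d and the dimmer Ms4a7 and Ms4a8a probes.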
